A study of Mus musculus with 9 samples.

Results

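T-cell receptor variable segments were followed here across thymocytes sorted by how strongly they had recently signalled. The members were the rows of the deposited gene table named Trav or Trbv with a mean of at least 1 TPM (transcripts scaled to a fixed sum in each sample) over the 9 samples. By this rule 118 of 41978 genes were members, 88 Trav and 30 Trbv. Of the 119 V rows, 1 fell below the limit, Trav15d-1-dv6d-1 with a mean of 0.664 TPM, and the lowest member was Trav7n-6 with 1.12 TPM. By GENCODE annotation of the same genome build, 116 members were found and 20 of them are pseudogenes, 12 Trav and 8 Trbv.

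The samples were semimature CD4 single-positive (SP4) thymocytes, gated as live CD25-, CD24+, CD69+, CD4+ and CD8-, from mice that all carried the Nur77-eGFP BAC Tg transgene, in which regulatory sequence of Nr4a1 drives GFP after TCR stimulation. About 10% of cells with the lowest, medium and highest GFP formed the GFPlo, GFPmed and GFPhi groups, with 3 biological replicates each and 10000 cells per sample. Every group carried the same transgene, and the labels give no treatment, age or sex. Nr4a1 transcripts averaged 840 TPM in GFPhi samples, against 374 in GFPmed and 217 in GFPlo samples. The SP4 markers Cd4, Cd69, Cd24a, Cd3e, Trac, Trbc1, Trbc2 and Ccr7 were present in every sample, with a summed level of 9973 to 12890 TPM. Their levels were not alike in the groups. Cd69 averaged 375 TPM in GFPlo, 366 in GFPmed and 216 in GFPhi samples, and Cd4 582, 562 and 474. For both, every GFPhi sample lay below all others. Trac alone averaged higher in GFPhi than in GFPlo samples (1998 against 1711 TPM). Reads on genes ran from 7465552 to 14943774 per sample, of which 4912 to 10556 fell on Trbv and 2299 to 4759 on Trav segments.

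Each αβ T cell assembles its receptor from a V segment of the Tcra locus (Trav) and a V segment of the Tcrb locus (Trbv), and the V segment encodes the loops that touch the MHC molecule. Thymocytes whose receptors bind self peptide-MHC strongly are deleted, silenced or diverted to other fates, so usage of V segments can shift between selected populations. Some Vβ chains also bind superantigens encoded by endogenous mouse mammary tumour viruses, which MHC class II I-E molecules present well and which remove the thymocytes that carry these chains in strains with I-E. Trbv12-1, Trbv12-2, Trbv15, Trbv16 and Trbv26, which encode Vβ5.2, Vβ5.1, Vβ12, Vβ11 and Vβ3, are among the segments of that kind. This list does not hold every such segment. The mice were on the C57BL/6 background, which lacks I-E. In bulk RNA, more cells with a segment and more RNA per cell cannot be told apart.

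The V exons of the segments with the largest change of usage among the more used Trbv segments are shown because near-identical copies are hard to tell apart by short reads. The sequences are those of GENCODE transcripts on GRCm38, all on the plus strand. Trbv12-1 (chr6:41113775-41114067) and Trbv12-2 (chr6:41119072-41119364) are 89.1% identical, and the capitals mark the 32 bases at which they differ. Trbv15 (chr6:41141361-41141658) is 72.9% identical to Trbv16 and 56.9% to Trbv12-1, and is shown without capitals.
Trbv12-1: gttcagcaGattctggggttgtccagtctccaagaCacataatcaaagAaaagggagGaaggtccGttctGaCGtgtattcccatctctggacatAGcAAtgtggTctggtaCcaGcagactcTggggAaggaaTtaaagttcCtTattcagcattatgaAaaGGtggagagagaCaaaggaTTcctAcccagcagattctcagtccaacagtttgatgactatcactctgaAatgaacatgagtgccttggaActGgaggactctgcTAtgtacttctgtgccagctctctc
Trbv12-2: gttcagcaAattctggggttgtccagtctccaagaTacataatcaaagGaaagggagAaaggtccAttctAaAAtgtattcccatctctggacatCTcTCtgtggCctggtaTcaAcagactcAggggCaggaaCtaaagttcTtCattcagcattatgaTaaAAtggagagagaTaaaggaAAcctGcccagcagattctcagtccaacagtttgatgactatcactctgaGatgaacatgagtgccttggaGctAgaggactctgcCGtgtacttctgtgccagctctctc
Trbv15: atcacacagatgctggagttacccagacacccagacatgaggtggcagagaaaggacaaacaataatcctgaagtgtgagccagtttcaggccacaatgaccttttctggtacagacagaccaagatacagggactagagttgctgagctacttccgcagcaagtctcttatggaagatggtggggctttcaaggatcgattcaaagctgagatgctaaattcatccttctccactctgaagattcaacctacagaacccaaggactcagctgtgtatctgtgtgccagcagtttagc
Stretches of 100 bases, the read length, were compared between annotated spliced transcripts, taking for each segment the transcript that shared least. None was shared between a Trbv member and another V segment. Among the Trav members with a sequence, 57 of 86 shared at least 1 such stretch with another segment. Only uniquely mapped reads were counted, so reads from shared stretches of these Trav copies may have been left uncounted. Their values are therefore uncertain.

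The summed expression of both loci was compared first. The Trbv rows summed to 7006, 8181 and 8558 TPM in the 3 GFPlo samples, 7871, 8402 and 8748 TPM in GFPmed samples, and 7381, 8008 and 7702 TPM in GFPhi samples. The 3 groups overlapped and showed no trend past the limit (two-sided exact permutation test, p = 0.667, as for all trends given here). The Trav rows, at 3697 ± 310 TPM (SD) in the 3 GFPlo samples, 3828 ± 205 in GFPmed and 4029 ± 275 in GFPhi, overlapped as well (exact permutation p = 0.144). With arrangements kept within replicate numbers, the rise of the Trav total had an exact permutation p of 0.00926, the smallest possible there. Of the constant and CD3 genes, which complete the receptor, Trac, Trbc1, Trbc2, Cd3d, Cd3e, Cd3g and Cd247 did not pass the test between GFPhi and GFPlo, with log2 fold changes from -0.18 to 0.23 and adjusted p of 0.295 or more (limma). Dntt, the polymerase that adds bases at V(D)J junctions, changed by -1.44 on the log2 scale (limma, SE 0.16, adjusted p = 0.0026).

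Usage was then expressed as the share of each segment in the summed TPM of its locus, in percent. The exact trend test took all 1680 arrangements of the 9 samples, and its smallest possible p is 0.00119. Among Trbv segments, 10 of 30 (33.3%) had a trend p of at most 0.05, 4 rising and 6 falling. Among Trav segments, 11 of 88 (12.5%) did, 6 rising and 5 falling. The same test on the TPM of all 30693 genes tested gave 14.9%, or 7.22% rising and 7.71% falling. The Trav share was thus near the background, and the Trbv share was above it. TPM instead of shares gave 9 Trbv and 10 Trav segments with a p of at most 0.05. The Trav counts hung on single samples: 3 segments rose without GFPlo replicate 2, and those falling numbered 2 without GFPlo replicate 2, 3 without GFPhi replicate 1 and 2 without GFPhi replicate 3. The p-values of single segments are not adjusted.

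The shares of 10 Trbv and 13 Trav segments did not overlap between GFPhi and GFPlo samples (33.3% and 14.8% of them, beside 18.2% of all genes on TPM). Between GFPmed and GFPlo it was 6 of 30 Trbv and 10 of 88 Trav segments (beside 10.3% of all genes), and between GFPhi and GFPmed 9 of each locus (beside 16.5%). With 3 samples against 3, the exact permutation test of a pair of groups cannot go below 0.1, so the trend over 3 groups carries the test.

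**Figure D1:**
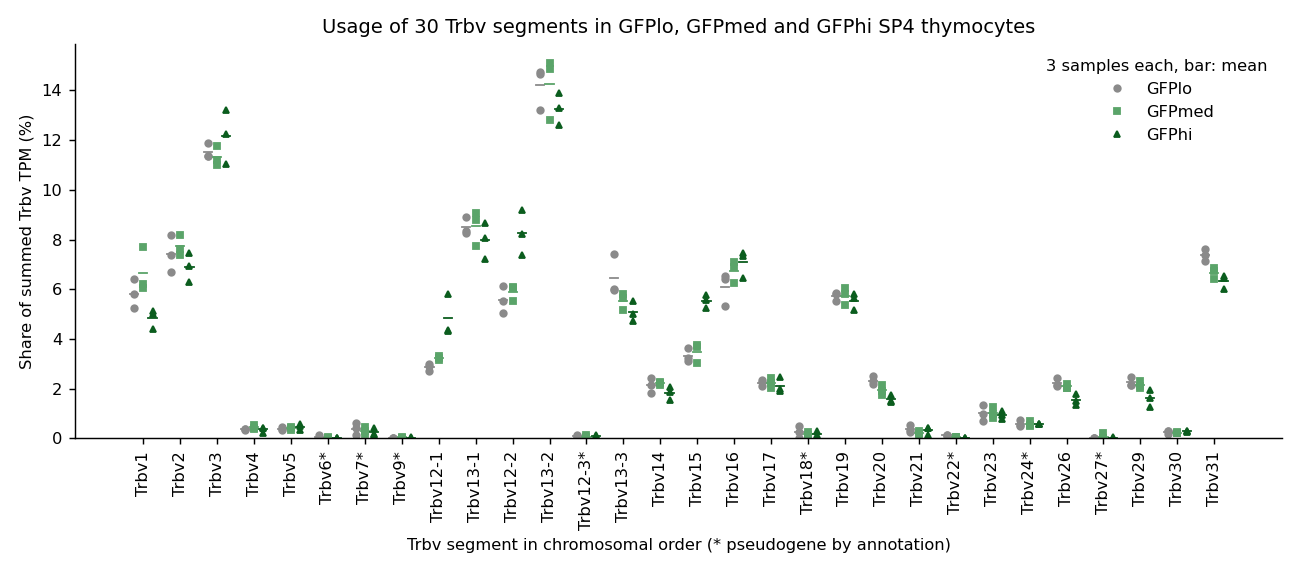
Share of the summed Trbv TPM (%, vertical axis) of the 30 Trbv segments in chromosomal order (horizontal axis), with 3 samples per group as points and the group mean as a bar. The GFPhi points of Trbv12-1, Trbv12-2 and Trbv15 lie above all GFPlo and GFPmed points of the same segment, while the neighbours Trbv13-1 and Trbv13-2 overlap.

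Trbv12-1, the segment of Vβ5.2, rose in usage. It held 2.99%, 2.71% and 2.92% of Trbv TPM in the GFPlo samples, 3.32%, 3.17% and 3.23% in GFPmed samples, and 5.81%, 4.34% and 4.33% in GFPhi samples. Every GFPmed sample lay above every GFPlo sample, and every GFPhi sample above both, with GFPhi replicate 1 highest. The share was 1.68-fold higher in GFPhi than in GFPlo, a difference of 1.95 ± 0.497 percentage points (SE), and the trend had the smallest exact permutation p, 0.00119. These shares rest on 142 to 467 reads per sample.

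Trbv12-2, the segment of Vβ5.1, had shares of 6.14%, 5.53% and 5.03% in GFPlo, 6.08%, 6.04% and 5.52% in GFPmed, and 7.38%, 8.23% and 9.17% in GFPhi samples. The GFPhi samples stood apart from the other 6, and GFPlo and GFPmed overlapped. The share averaged 8.26% ± 0.897 (SD, n = 3) in GFPhi and 5.56% ± 0.555 in GFPlo samples, a 1.49-fold ratio, and the trend had an exact permutation p of 0.00833. Within GFPhi, the sample with the highest share of Trbv12-1 had the lowest share of Trbv12-2, and the sum of both segments was steadier, with 13.2%, 12.6% and 13.5% in GFPhi samples against 9.13%, 8.24% and 7.95% in GFPlo samples. Vβ5 is the chain that, with Vα2, makes the OT-II receptor used as a transgenic model in the same study.

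Trbv15, the segment of Vβ12, lies further along the same locus. Its share was 3.10%, 3.63% and 3.23% in GFPlo, 3.67%, 3.74% and 3.02% in GFPmed, and 5.24%, 5.76% and 5.56% in GFPhi samples. The GFPhi samples were all higher than the other 6, while GFPlo and GFPmed overlapped. The GFPhi share was 1.66-fold that of GFPlo (difference 2.19 ± 0.219 percentage points, SE), with an exact permutation p of 0.00833 for the trend. Trbv16, the segment of Vβ11, also rose, but less: its share was 6.09% ± 0.674 (SD, n = 3) in GFPlo, 6.75% ± 0.453 in GFPmed and 7.09% ± 0.543 in GFPhi samples, which overlapped (exact permutation p = 0.0476 for the trend). The rise of Trbv16 passed 0.05 in 7 of 16 alternative settings.

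**Figure D2:**
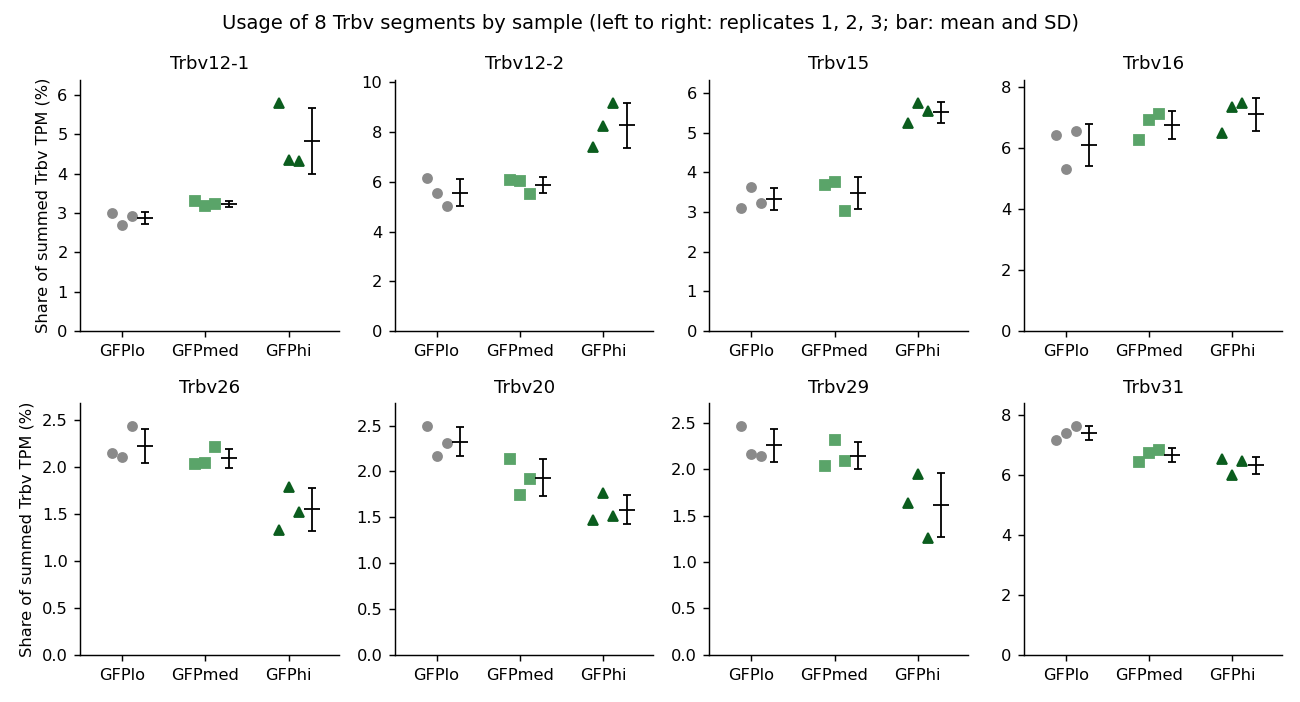
Share of the summed Trbv TPM (%, vertical axes from 0) of 8 Trbv segments in each sample, with the mean and SD of the 3 samples per group in black. Trbv12-1, Trbv12-2 and Trbv15 step up between GFPmed and GFPhi, and Trbv26 and Trbv29 step down there.

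The remaining member of the superantigen list, Trbv26 (Vβ3), went the other way. Its share was 2.14%, 2.10% and 2.43% in GFPlo, 2.03%, 2.03% and 2.20% in GFPmed, and 1.33%, 1.79% and 1.52% in GFPhi samples. All GFPhi samples were below the other 6, a 0.696-fold share relative to GFPlo, and the trend had an exact permutation p of 0.00357. All 5 segments of the list thus passed the trend test, 4 rising and 1 falling. The list was chosen with earlier results of these data known, so this count is no independent support, and the list was not tested as a set. It also leaves out other segments of that kind. The count and the sum below therefore hold for these 5 segments alone. As a description over the list, the 5 segments together made up 20.1% ± 0.761 (SD, n = 3) of Trbv TPM in GFPlo, 21.4% ± 0.413 in GFPmed and 27.2% ± 0.936 in GFPhi samples.

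Most of the change in 3 of the 4 rising segments lay between GFPmed and GFPhi. Trbv12-1, Trbv12-2 and Trbv15, which were put together after their values were seen, summed to 11.8% ± 0.532 (SD, n = 3) in GFPlo, 12.6% ± 0.720 in GFPmed and 18.6% ± 0.399 in GFPhi samples. The GFPmed means of Trbv12-1, Trbv12-2 and Trbv15 had covered fractions of 0.187, 0.116 and 0.0709 of the difference between GFPlo and GFPhi. For Trbv16 the fraction was 0.661, and for the falling Trbv20 it was 0.531.

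The other falling Trbv segments were Trbv20, Trbv31, Trbv13-3, Trbv29 and Trbv22. Trbv20 had shares of 2.49%, 2.17% and 2.31% in GFPlo, 2.14%, 1.74% and 1.92% in GFPmed, and 1.47%, 1.76% and 1.52% in GFPhi samples. Each GFPhi sample was below each GFPlo sample, and the trend had an exact permutation p of 0.00238. Trbv31, which lies in reverse orientation beyond the constant genes, went from 7.39% ± 0.234 (SD, n = 3) in GFPlo over 6.66% ± 0.221 in GFPmed to 6.32% ± 0.282 in GFPhi samples (exact permutation p = 0.00357). Trbv13-3 (Vβ8.1) went from 6.47% ± 0.834 over 5.54% ± 0.320 to 5.08% ± 0.400 (exact permutation p = 0.00595, n = 3). Trbv29 had 2.26% ± 0.176 in GFPlo, 2.14% ± 0.147 in GFPmed and 1.61% ± 0.349 in GFPhi samples (exact permutation p = 0.0119, n = 3). For all 4 of these segments no GFPhi sample overlapped a GFPlo sample. Trbv22, a pseudogene by annotation, also fell, but on 3, 6 and 5 reads in GFPlo, 3, 1 and 2 in GFPmed and 1, 1 and 0 in GFPhi samples, where the deduced counts are too low to give a fold.

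Shares of a locus sum to a fixed total. With Trbv12-1, Trbv12-2 and Trbv15 left out of the Trbv total, a setting added after the data were seen, Trbv20, Trbv22, Trbv26 and Trbv29 still fell with exact permutation p from 0.00119 to 0.0298. Trbv31 and Trbv13-3 then missed the limit (exact permutation p = 0.0798 and 0.0524). Trbv16 still rose (exact permutation p = 0.0107), and Trbv3 rose as well (exact permutation p = 0.0441, against 0.306 with the whole total).

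The most used Trbv segments, ranked by share of TPM, did not all take part. That ranking depends on the genomic span in the TPM divisor and can differ from a ranking by reads. Trbv13-2 (Vβ8.2), with the largest mean share of 13.9%, had 14.2% ± 0.864 (SD, n = 3) in GFPlo, 14.3% ± 1.27 in GFPmed and 13.3% ± 0.643 in GFPhi samples (exact permutation p = 0.248). Trbv3 had 11.5% ± 0.297, 11.3% ± 0.394 and 12.2% ± 1.09 in the same order (exact permutation p = 0.306, n = 3). Trbv13-1 (Vβ8.3) had 8.51% ± 0.350, 8.53% ± 0.707 and 7.99% ± 0.729 (exact permutation p = 0.317, n = 3), and Trbv2 had 7.42% ± 0.744, 7.73% ± 0.419 and 6.90% ± 0.584 (exact permutation p = 0.345, n = 3). In each of these the groups overlapped. Of the Vβ8 list, 1 of 3 segments fell and none rose, and the 3 summed to 29.2% ± 1.79 in GFPlo, 28.3% ± 0.791 in GFPmed and 26.3% ± 0.977 in GFPhi samples. Trbv1 was 4.84% ± 0.396 in GFPhi samples, below all GFPlo samples (5.81% ± 0.583) and all GFPmed samples (6.64% ± 0.908), but its trend did not pass (exact permutation p = 0.255, n = 3).

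Position along the chromosome was read as a description, over stretches cut after the values were seen. The stretch with the rising segments was cut to run from the first of them to the last. That it holds all of them, and that none rose outside it, is therefore set by the cut. The 4 rising Trbv segments lie within chr6:41113550-41152230, a stretch of 9 members that also holds Trbv13-1, Trbv13-2, Trbv12-3, Trbv13-3 and Trbv14, of which Trbv13-3 fell and none of the others passed. Trbv12 and Trbv13 segments alternate there. Of the 13 members from Trbv17 to Trbv31, 5 fell and none rose, and of the 8 from Trbv1 to Trbv9, none passed the trend test. Order on the chromosome was set against the log2 ratio of GFPhi to GFPlo shares. Only segments with coordinates and a mean of at least 5 TPM were taken. The Spearman coefficient was -0.27 across 27 Trbv segments and -0.01 across 76 Trav segments. Segments of a locus share libraries and a total, so they are not independent.

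As whole profiles, the Trbv usage of GFPhi samples stood apart from that of the other groups. The Jensen-Shannon distance between Trbv profiles, which is 0 for equal usage, averaged 0.0709 between GFPlo samples, 0.061 between GFPmed samples and 0.0716 between GFPhi samples. Between GFPlo and GFPmed samples it averaged 0.0686, which lies between the means within GFPlo and within GFPmed, and between GFPmed and GFPhi samples 0.0993 (0.0815 to 0.121). Between GFPlo and GFPhi samples it ran from 0.105 to 0.127 with a mean of 0.115, above every distance within a group, the highest of which was 0.0822. The effective number of Trbv segments, the exponential of the Shannon entropy, was 16.5 ± 0.557 (SD, n = 3) in GFPlo, 16.4 ± 0.0626 in GFPmed and 16.1 ± 0.292 in GFPhi samples, and the groups overlapped.

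**Figure D3:**
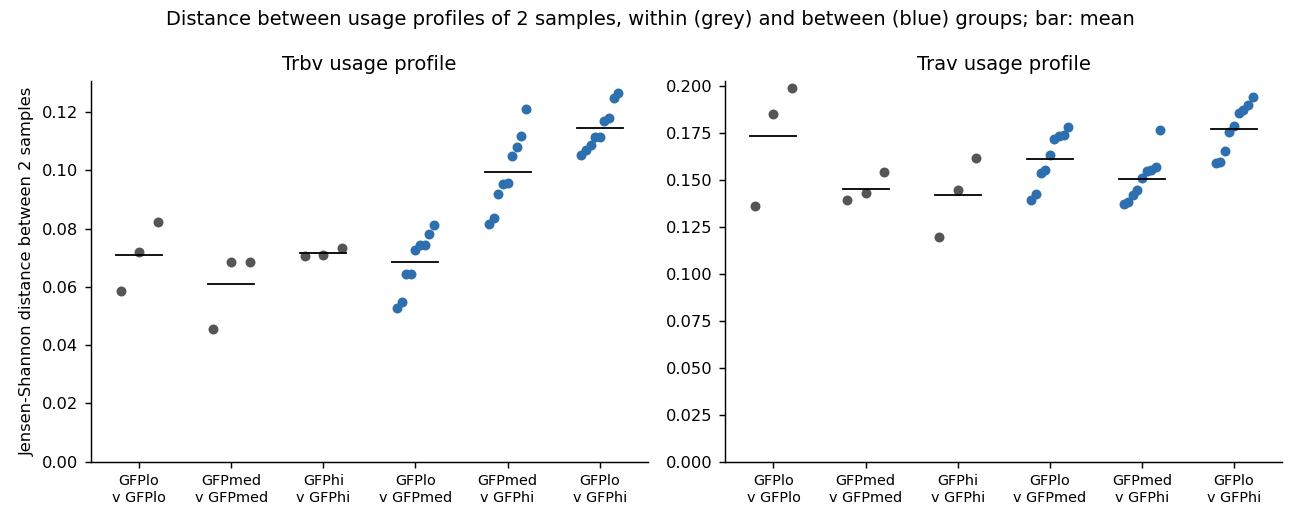
Jensen-Shannon distance (no unit, vertical axis from 0) between the usage profiles of 2 samples, for pairs within a group (grey) and between groups (blue), with the mean as a bar. For Trbv the GFPlo and GFPhi pairs lie between 0.105 and 0.127, above all pairs within a group, while for Trav the pairs overlap.

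For Trav the same distances overlapped. They averaged 0.173 between GFPlo samples, 0.146 between GFPmed samples, 0.142 between GFPhi samples and 0.177 between GFPlo and GFPhi samples. Trav usage was spread over more segments, with an effective number of 52.6 ± 2.42 (SD, n = 3) in GFPlo, 54.6 ± 1.37 in GFPmed and 53.7 ± 1.56 in GFPhi samples. The median Trav member had a mean share of 0.732%, and the largest, Trav14-2, had 5.53%. The reads behind a Trav segment were few: the count in a member's lowest sample had a median of 14 over the Trav members.

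Trav15-1-dv6-1 had the largest fold rise among the Trav segments that passed the trend test, while Trav14-1 and Trav7-4 gained more in percentage points. Its symbol marks a segment that can join either the α or the δ chain. It held 0.769%, 1.20% and 0.542% of Trav TPM in GFPlo, 1.57%, 1.33% and 1.20% in GFPmed, and 1.85%, 1.93% and 1.81% in GFPhi samples. No group overlapped another, but GFPlo and GFPmed nearly met, at 1.197% in GFPlo replicate 2 and 1.199% in GFPmed replicate 3. The trend reached the smallest exact permutation p, 0.00119. With shares of solved reads instead of TPM, the exact permutation p was 0.00238. The share was 2.23-fold higher in GFPhi than in GFPlo (difference 1.03 ± 0.195 percentage points, SE), on 19 to 89 reads per sample.

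Its relative Trav15-2-dv6-2 did not pass the test. Its share was 0.116%, 0.520% and 0.373% in GFPlo, 0.356%, 0.305% and 0.261% in GFPmed, and 0.195%, 0.610% and 0.438% in GFPhi samples, and the groups overlapped (exact permutation p = 0.568). The stretches shown are chr14:53559945-53560244, the first 300 bases of a V exon of 303 bases, and chr14:53649695-53649994 (plus strand). The 2 V exons are 77.9% identical over 303 aligned positions, and the capitals mark bases that differ.
Trav15-1-dv6-1: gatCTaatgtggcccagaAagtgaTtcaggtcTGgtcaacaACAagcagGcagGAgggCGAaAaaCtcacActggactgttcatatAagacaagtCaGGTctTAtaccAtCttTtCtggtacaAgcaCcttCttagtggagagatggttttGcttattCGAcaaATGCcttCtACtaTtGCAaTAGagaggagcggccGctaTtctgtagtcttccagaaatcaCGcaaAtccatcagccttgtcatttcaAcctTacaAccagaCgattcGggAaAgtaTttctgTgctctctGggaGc
Trav15-2-dv6-2: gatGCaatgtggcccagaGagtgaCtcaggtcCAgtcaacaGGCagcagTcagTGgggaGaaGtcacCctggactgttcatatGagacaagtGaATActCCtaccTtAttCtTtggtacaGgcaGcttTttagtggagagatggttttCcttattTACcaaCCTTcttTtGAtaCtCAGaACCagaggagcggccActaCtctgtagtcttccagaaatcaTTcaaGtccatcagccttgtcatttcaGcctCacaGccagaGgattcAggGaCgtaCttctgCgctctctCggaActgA
By the same comparison of spliced transcripts, Trav15-1-dv6-1 shared no stretch of 100 bases with another V segment. Trdc, the constant gene of the δ chain, averaged 15.1 TPM in GFPlo, 13.0 in GFPmed and 16.9 in GFPhi samples, with an SD of 7.31 in the latter. The summed level of the γδ list (Trdc, Trgc1, Trgc2, Trgc4 and Sox13) ran from 31.5 to 34.3 TPM in GFPlo, 26.0 to 30.1 TPM in GFPmed and 28.8 to 41.9 TPM in GFPhi samples. Within the list, Trgc2 averaged 1.06 TPM in GFPlo and 5.68 TPM in GFPhi samples (SD 0.740 and 2.03), and Sox13 9.73 and 1.99 TPM (SD 1.13 and 0.829), without overlap and in opposite directions. The part of these genes in the result was not tested.

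Of the 8 members whose symbols mark use by both chains, 1 rose (Trav15-1-dv6-1) and 1 fell (Trav21-dv12). Trav21-dv12 had 0.894% ± 0.0541 (SD, n = 3) in GFPlo, 0.824% ± 0.0983 in GFPmed and 0.686% ± 0.139 in GFPhi samples and overlapped (exact permutation p = 0.0429, held in 10 of 16 alternatives). The other 6, Trav15-2-dv6-2, Trav14d-3-dv8, Trav13-4-dv7, Trav4-4-dv10, Trav16d-dv11 and Trav6-7-dv9, had exact permutation p from 0.0702 to 0.730.

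**Figure D4:**
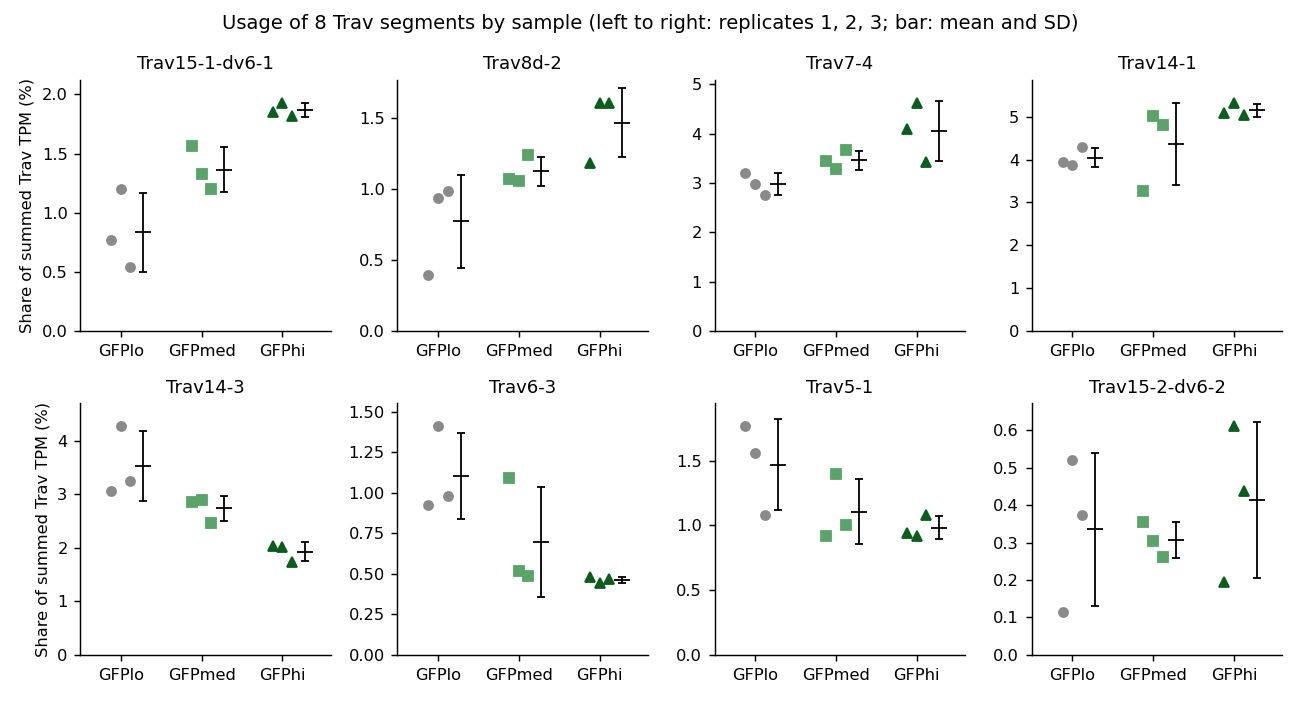
Share of the summed Trav TPM (%, vertical axes from 0) of 8 Trav segments in each sample, with the mean and SD of the 3 samples per group in black. Trav15-1-dv6-1 and Trav14-3 have no overlap between the 3 groups, in opposite directions, whereas Trav15-2-dv6-2 overlaps throughout.

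The Trav14 family encodes Vα2 chains, and its 5 members differed in direction. Trav14-3 fell, with 3.06%, 4.27% and 3.24% in GFPlo, 2.87%, 2.89% and 2.47% in GFPmed, and 2.03%, 2.02% and 1.73% in GFPhi samples. No group overlapped another, the GFPhi share was 0.548-fold that of GFPlo, and the trend had the smallest exact permutation p, 0.00119. Of the 100-base stretches in its spliced transcript, 23.2% occur in another segment. Trav14-1 rose, with 3.95%, 3.88% and 4.29% in GFPlo, 3.26%, 5.01% and 4.80% in GFPmed, and 5.08%, 5.33% and 5.03% in GFPhi samples (exact permutation p = 0.0488), a trend that passed in 4 of 16 alternatives. Trav14-2, Trav14n-3 and Trav14d-3-dv8 had exact permutation p of 0.179, 0.489 and 0.0702. The family as a whole made up 22.0% to 27.9% of Trav TPM in GFPlo, 21.3% to 23.5% in GFPmed and 20.9% to 21.6% in GFPhi samples.

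Of the Trav7 family 2 of 11 members rose and of the Trav8 family 2 of 5, beside 6 of all 88 Trav segments. Trav7-4 had 3.21%, 2.98% and 2.75% in GFPlo, 3.45%, 3.28% and 3.67% in GFPmed, and 4.10%, 4.63% and 3.44% in GFPhi samples. Both GFPmed and GFPhi samples were above all GFPlo samples but overlapped with each other (exact permutation p = 0.00595). Trav8d-2 had 0.394%, 0.940% and 0.985% in GFPlo, 1.07%, 1.06% and 1.24% in GFPmed, and 1.19%, 1.61% and 1.61% in GFPhi samples, on 8 to 58 reads per sample (exact permutation p = 0.00238). Trav7d-4 and Trav8n-2 rose 1.29-fold and 1.54-fold (exact permutation p = 0.0286 and 0.0476), which held in 12 and 7 of 16 alternatives. The Trav7 family summed to 11.6% ± 0.837 (SD, n = 3) in GFPlo, 12.4% ± 0.386 in GFPmed and 13.5% ± 0.826 in GFPhi samples, and the Trav8 family to 4.89% ± 0.582, 5.50% ± 0.232 and 6.71% ± 1.30. Trav7-4 and Trav7d-4 share 43.2% and 46.6% of their 100-base stretches with other segments, Trav8n-2 shares 7.77%, and Trav8d-2 shares none.

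The falling Trav segments besides Trav14-3 and Trav21-dv12 were Trav6-3, Trav6d-3 and Trav5-1. Trav6-3 had 0.926%, 1.41% and 0.979% in GFPlo, 1.09%, 0.516% and 0.488% in GFPmed, and 0.480%, 0.444% and 0.466% in GFPhi samples (exact permutation p = 0.025). All GFPhi samples were below all others, and Trav6d-3, its near copy, fell alongside it (exact permutation p = 0.0345). The fall held in 15 of 16 alternatives for Trav6-3 and in 11 for Trav6d-3. These copies share 84.8% and 96.7% of their 100-base stretches with other segments, so the level of each is uncertain. Trav5-1, with no shared stretch, had 1.47% ± 0.352 (SD, n = 3) in GFPlo, 1.11% ± 0.254 in GFPmed and 0.982% ± 0.0886 in GFPhi samples, with overlap (exact permutation p = 0.0417, held in 8 of 16 alternatives).

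Segments of innate-like T cells were read next. Trav11, which with Traj18 forms the receptor of invariant natural killer T cells, had no read in the GFPlo and GFPmed samples and at most 7 reads in a GFPhi sample. Of its stretches of 100 bases, 99.6% occur in another segment, so a count of uniquely mapped reads says little of its level. The 3 Trav11 members together made up 0.195% ± 0.206 (SD, n = 3) of Trav TPM in GFPlo, 0.119% ± 0.111 in GFPmed and 0.295% ± 0.0481 in GFPhi samples. Most of this sum was Trav11n, a pseudogene by annotation, with mean shares of 0.107%, 0.119% and 0.188% in the same order. Trav11d shares 100% of its stretches, so the sum says little of functional Trav11 usage. Trav1, which with Traj33 forms the receptor of mucosal-associated invariant T cells, had 0.603% ± 0.182, 0.793% ± 0.167 and 0.666% ± 0.183 in the same order (exact permutation p = 0.675, n = 3). Of the innate-like marker list, Zbtb16, the lineage factor of both cell types, averaged 0.0986 to 0.142 TPM over the groups. The summed list (Zbtb16, Klrb1c, Tbx21 and Slamf6) ran from 13.6 to 16.7 TPM in GFPlo and 41.4 to 45.6 TPM in GFPhi samples, of which Slamf6 held most (12.3 and 40.2 TPM on average).

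Markers of other cells also differed between the groups. The summed regulatory T cell list (Foxp3, Il2ra and Ikzf2) ran from 8.80 to 9.27 TPM in GFPlo, 9.25 to 11.3 TPM in GFPmed and 37.9 to 46.2 TPM in GFPhi samples, although CD25+ cells were gated out. The 6 double-positive thymocyte markers in the table summed to 46.1 to 47.2 TPM in GFPlo, 41.0 to 43.4 TPM in GFPmed and 22.8 to 31.5 TPM in GFPhi samples. Their part in the shift of V usage was not tested.

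TPM levels were compared with limma over all genes, where a call needs a change of at least 2-fold (1 on the log2(TPM + 1) scale) with an adjusted p of at most 0.05. Of the 115 members tested, 2 were called between GFPhi and GFPlo (1.74% against 1.66% of all genes tested). They were Trav15-1-dv6-1, higher in GFPhi by 1.33 on the log2 scale (limma, SE 0.25, adjusted p = 0.0257), and the pseudogene Trbv22, which has 6 reads or fewer in every sample. Leaving out GFPlo replicate 3 left no call. Leaving out GFPlo replicate 1 or 2, GFPmed replicate 2, or GFPhi replicate 1 or 3 left 1, and leaving out GFPmed replicate 1 gave 3. Without the limit on the fold, 7 members passed (6.09% against 3.89% of all genes). The added segments were Trbv12-1 at 0.70 (adjusted p = 0.012), Trbv12-2 at 0.53 (adjusted p = 0.0198), Trbv15 at 0.70 (adjusted p = 0.0255), Trav7-4 at 0.56 (adjusted p = 0.0487) and Trbv20 at -0.59 (adjusted p = 0.028, limma, log2 scale). Trav14-3, at -0.72, narrowly missed the limit (adjusted p = 0.0517, limma). With only the 2 groups in the model the adjusted p of Trav15-1-dv6-1 was 0.0983, and with median-of-ratios scaling of TPM it was 0.0642. Under the same 2 settings Trbv12-1 had 0.062 and 0.080, Trbv12-2 0.0897 and 0.276, Trbv15 0.0848 and 0.238, Trav7-4 0.126 and 0.300, and Trbv20 0.0866 and 0.493 (limma).

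**Figure D5:**
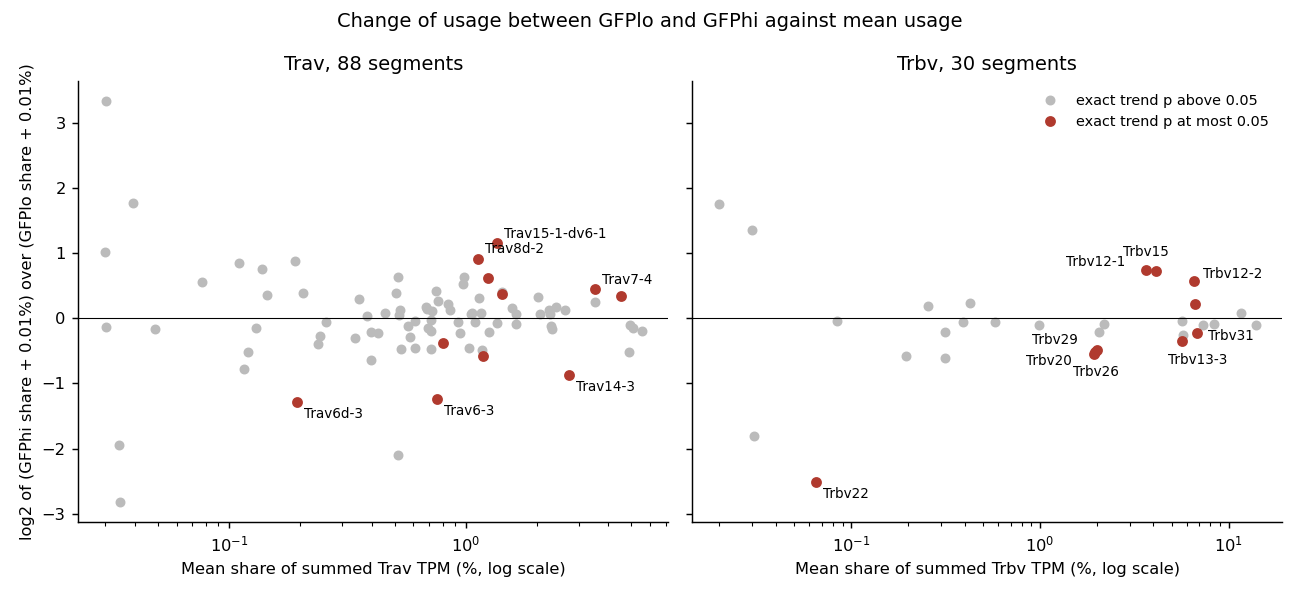
Log2 of the GFPhi share over the GFPlo share, each with 0.01% added (vertical axis), against the mean share over the 9 samples (%, log scale, horizontal axis), for 88 Trav and 30 Trbv segments. Segments with an exact trend p of at most 0.05 are red: among them are Trbv12-1, Trbv12-2 and Trbv15 above 0 at shares of 3.65% to 6.57%, and the largest ratios at the left belong to segments with few reads.

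Between neighbouring groups no member was called. GFPmed against GFPlo gave 0 of 115 (0.0586% of all genes), and GFPhi against GFPmed gave 0 of 115 (0.691% of all genes), by limma on TPM and by limma-voom on the solved reads. At an unadjusted p under 0.05, limma had 22 members between GFPhi and GFPlo (19.1%, beside 13.8% of all genes), 9 members between GFPmed and GFPlo and 16 between GFPhi and GFPmed, or 7.83% and 13.9% against 4.67% and 10.6% of all genes. The median log2 fold change of the members between GFPhi and GFPlo was 0.18 over 86 Trav and -0.13 over 29 Trbv segments, beside -0.09 over all genes tested.

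Trav15d-3 is a pseudogene by annotation and was picked out after its values were seen. It had the lowest ratio of GFPhi to GFPlo shares among the segments with a mean share over 0.3%. It had 0.273%, 0.677% and 0.913% in GFPlo, 0.862%, 1.28% and 0.230% in GFPmed, and 0.0766%, 0.0772% and 0.258% in GFPhi samples, on 1 to 13 reads. The GFPhi samples were below all GFPlo samples, and the trend had an exact permutation p of 0.171. Counting error at such depths covers only part of the error, because the reads were amplified without molecular identifiers.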

How the data were processed

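Bulk RNA-seq was available for 9 samples. The authors prepared SMART-seq v4 and Nextera XT libraries, aligned reads with STAR 2.7.11b to GRCm38 (GENCODE), removed identical duplicates, counted uniquely mapped reads per gene and deposited them as TPM. Whether counting used strand is not given in the sources used here. The deposited table also holds the authors' mean normalized signal per group, log2 fold changes, adjusted p-values and a score for each call from DESeq2 1.34.0. Only the signal was used, to solve whole reads from TPM (100% whole within 0.01 reads, 41578 genes solved, 400 not). The TPM divisor equalled the annotated genomic span, leader intron included, for 84 of 107 members within 1%, so shares of different segments are not per exon length. Coordinates and V exons are from GENCODE M21 on GRCm38, an earlier release than the authors' one.

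limma 3.58.1 in R 4.3.3 was fitted on log2(TPM + 1), eBayes with trend, all 9 samples, for the 30693 genes reaching 1 TPM in 3 or more samples, after tests on simulated data. Shares were tested by exact permutation in Python 3.11.15. Named segments were the 8 most used per locus, those with a trend p of at most 0.05 (at most 10 per locus), those called by limma, and the Trav14, Trav1, Trav11, dv, superantigen and Vβ8 lists. Members and lists were chosen with earlier results of these data known. No source states that same-numbered samples share mice or that replicates were separate animals, so p-values measure the spread between these samples. Alternatives covered the pseudocount, filters, scaling, samples fitted, share definitions and each sample left out. The paper's text and methods differ on the CD24 gate, and the label's CD24+ is used.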

Additional observations from a re-analysis of the deposited data

How the results depend on the processing

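Many Trav segments rest on few reads or share stretches with near copies, which limits their values. The number of segments called between GFPhi and GFPlo (2) was 1 with a pseudocount of 0.1, 1 by limma-voom on solved reads, 0 with median-of-ratios scaling, 0 with only the 2 groups compared, 7 with no limit on the fold change, and 0 to 3 when each sample was left out. The cause was not tested. The 0 calls of the other comparisons held in all alternatives run. With each sample left out, rising Trav segments numbered 3 to 6 and falling ones 2 to 6. Trav segments higher in GFPhi than GFPlo without overlap numbered 6 to 12, those lower 7 to 15, and such Trbv segments higher 3 to 5, with fewer samples to overlap. With Trbv12-1, Trbv12-2 and Trbv15 left out of the total, a setting chosen after seeing the data, 2 Trbv segments rose, and the changes from GFPlo to GFPhi of Trbv13-2, Trbv13-1 and Trbv2 turned positive at 0.196, 0.167 and 0.0624 percentage points. Leaving out samples turned the changes of Trav14n-3 (-1.12 to 0.0589), Trav15-2-dv6-2 (-0.0318 to 0.188), Trav1 (-0.0259 to 0.168) and Trav6-7-dv9 (-0.0874 to 0.158), none past the limit. The change of the Trbv total from GFPlo to GFPhi, negative as reported, was 2.71% with median-of-ratios scaling and -8.04% to 1.36% with each sample left out. Among single segments, 662 alternative values stayed on their side of the limit, 118 lost it, 6 gained it and 9 changed sign.

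The groups share replicate numbers. Deviations from the group means correlated at 0.0122 to 0.224 between same-numbered samples (9 pairs, mean 0.0609). Between others they correlated at -0.186 to 0.148 (18 pairs, mean -0.0305). The same-numbered mean was higher, but the ranges overlapped and no source states a pairing. Whether the numbers pair the samples is thus not settled, and the main tests did not use them. With a replicate block, limma called 1 segment (Trbv22 had an adjusted p of 0.0724), Trav7-4 and Trbv20 passed no longer without the fold limit (adjusted p = 0.0849 and 0.0745), 3 Trav segments fell, and the rise of the Trav total (8.99% of the GFPlo mean) had an exact permutation p of 0.00926, the smallest possible within replicate numbers. Every other count of segments in the block fit was within 1.5 times its value without the block.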
